A study of Mus musculus with 7 samples.

Results

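The circadian clock genes described here are the 3 period genes Per1, Per2 and Per3, the cryptochrome genes Cry1 and Cry2, the REV-ERB receptor genes Nr1d1 and Nr1d2, the orphan receptor gene Rora, and the transcription factor genes Dbp and Bhlhe41. They were chosen by symbol, with their response to phenylephrine (PE) in these libraries already known, and Per1 and Rora were picked out because of that response. All 10 were found among the 48795 gene identifiers of the count table, and all 10 passed the filter on low counts that left 15934 genes for testing. The PE response of the 10 genes is therefore given as a description. The count of them that passed a test stands beside the share over all genes, and again among the processing settings, with nothing read from it.

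RNA was sequenced from primary mouse oligodendrocyte precursor cells (OPCs), the dividing glial cells from which myelinating oligodendrocytes arise, isolated from wild-type CD-1 pups at P4 to P7. There were 4 control libraries labelled as having no treatment and 3 libraries of cells given PE, an α1-adrenergic agonist, at 20 µM for 1 hour. Replicate numbers 2, 3 and 4 have both a control and a PE library with the same code number in their titles, while control replicate 1 has no PE partner. All libraries share the strain, the genotype and the developmental stage. No vehicle is named for the controls, and nothing states whether the replicates came from separate animals or cultures, so errors cover the spread between these libraries, which may be technical. The attached protocols also mention tamoxifen, virus and immunoprecipitation in brain tissue, and it is not given whether any of these steps applied to the cultured cells. The series concerns noradrenergic signalling to OPCs, and the question asked here is how the clock genes stood after 1 hour of α1-adrenergic stimulation.

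The mammalian clock is a transcriptional feedback loop. CLOCK and BMAL1 (gene Arntl) bind E-box elements and drive the Per and Cry genes, whose proteins then repress CLOCK and BMAL1. In a linked loop, ROR receptors activate and REV-ERB receptors repress Arntl through a shared DNA element, and DBP drives further genes through D-box elements. Per1 also answers quickly to outside stimuli. In the mouse brain clock, light induces it through the factor CREB, which binds the cAMP response element (CRE).

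The libraries held between 12837463 and 17962339 counted reads, at which 3 reads correspond to 0.17 to 0.238 CPM (counts scaled to a library of 1000000 reads). The 6 OPC markers (Pdgfra, Cspg4, Olig1, Olig2, Sox10 and Ptprz1) summed to 6469 to 9016 CPM in control and 7888 to 8996 CPM in PE libraries. Of these 6 genes 1 passed within pairs (edgeR with the replicate number as a block), where 0.540% of all tested genes passed. It was Olig2, an oligodendrocyte lineage factor gene, named here after its value was seen. Olig2 fell by 0.19 ± 0.04 on the log2 scale (3 of 3 pairs, adjusted p = 0.0334, edgeR with the block). With the block limma-voom called 1 of the 6 and DESeq2 0, and without the pairs 0 of the 6 passed in edgeR. Summed levels of other markers in control were 878 to 1908 CPM for 5 mature oligodendrocyte genes, 573 to 1019 CPM for 5 astrocyte genes, 49 to 78.2 CPM for 5 neuron genes and 16.6 to 33.0 CPM for 6 microglia genes. Of all these markers the astrocyte gene Gjb6 alone had 0 reads in a library.

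Promoter windows of 250 bases before and 50 bases after the annotated transcription start were taken from RefSeq on GRCm38.p6, which covered 9 of the 10 genes (Per2 had no entry) and gave Per1 a pair of windows. The windows shown are those of Per1 and Rora, whose RNA was higher after PE in every pair, and those of Per3, Cry1 and Bhlhe41, which carry clock elements and had no such change. Cry2 and Dbp were also higher in every pair, by smaller amounts, and their windows are not shown. Each runs 5′ to 3′ on the strand of its gene, and capitals mark exact matches to the E-box CACGTG, the noncanonical E-box CACGTT, the D-box TTATGTAA or the CRE core TGACG on either strand. The Per1 windows lie at chr11:69098699-69098998 and chr11:69099902-69100201 on the plus strand, and the Rora window at chr9:68653536-68653835 on the plus strand. The Per3 window lies at chr4:151044616-151044915, the Cry1 window at chr10:85185005-85185304 and the Bhlhe41 window at chr6:145865371-145865670, all on the minus strand.
Per1 promoter 1: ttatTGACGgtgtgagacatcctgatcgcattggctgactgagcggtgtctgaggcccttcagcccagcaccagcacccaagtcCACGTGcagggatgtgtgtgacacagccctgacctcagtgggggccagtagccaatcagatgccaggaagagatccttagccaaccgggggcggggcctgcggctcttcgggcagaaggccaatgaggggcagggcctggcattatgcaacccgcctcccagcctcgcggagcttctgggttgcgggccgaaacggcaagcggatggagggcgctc
Per1 promoter 2: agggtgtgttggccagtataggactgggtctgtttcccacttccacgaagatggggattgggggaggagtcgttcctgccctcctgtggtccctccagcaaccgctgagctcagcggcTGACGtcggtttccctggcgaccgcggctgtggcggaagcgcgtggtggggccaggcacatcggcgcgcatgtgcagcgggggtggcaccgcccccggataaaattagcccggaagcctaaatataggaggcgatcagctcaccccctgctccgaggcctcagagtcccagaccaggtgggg
Rora: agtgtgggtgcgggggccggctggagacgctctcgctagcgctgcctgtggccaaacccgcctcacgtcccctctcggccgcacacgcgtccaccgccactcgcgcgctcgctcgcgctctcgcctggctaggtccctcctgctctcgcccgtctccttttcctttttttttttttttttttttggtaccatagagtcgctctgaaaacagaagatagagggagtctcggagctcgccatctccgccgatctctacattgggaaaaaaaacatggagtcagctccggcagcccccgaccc
Per3: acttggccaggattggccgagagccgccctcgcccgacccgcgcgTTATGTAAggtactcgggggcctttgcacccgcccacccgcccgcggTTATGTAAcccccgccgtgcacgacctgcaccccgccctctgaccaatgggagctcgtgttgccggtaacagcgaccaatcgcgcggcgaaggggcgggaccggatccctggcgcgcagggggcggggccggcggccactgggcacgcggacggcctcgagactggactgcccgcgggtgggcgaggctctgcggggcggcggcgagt
Cry1: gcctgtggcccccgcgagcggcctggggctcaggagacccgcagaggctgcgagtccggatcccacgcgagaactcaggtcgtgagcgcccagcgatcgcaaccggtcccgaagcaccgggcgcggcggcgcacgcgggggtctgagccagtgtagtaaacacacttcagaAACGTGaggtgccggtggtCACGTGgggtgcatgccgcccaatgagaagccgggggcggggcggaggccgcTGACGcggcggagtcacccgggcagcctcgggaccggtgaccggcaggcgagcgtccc
Bhlhe41: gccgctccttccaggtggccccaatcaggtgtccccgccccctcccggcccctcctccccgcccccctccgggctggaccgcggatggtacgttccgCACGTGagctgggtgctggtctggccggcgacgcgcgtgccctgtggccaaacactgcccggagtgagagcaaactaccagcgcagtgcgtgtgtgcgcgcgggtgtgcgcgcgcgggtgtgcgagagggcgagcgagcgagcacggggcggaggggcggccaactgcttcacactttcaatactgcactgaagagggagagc

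The first Per1 window held an E-box at -166 (the base just before the start is -1) and a CRE core at -246, and the other held a CRE core at -132. The Cry1 window held an E-box at -60, a noncanonical E-box on the other strand at -79 and a CRE core at -8. The Cry2 window held a noncanonical E-box at -166 and a CRE core at -209, and the Nr1d1 window a noncanonical E-box at -28, all on the other strand. For Cry2 and Nr1d1 the check that the bases after the RefSeq start lie in a GENCODE M21 transcript of the gene failed. Positions in their windows rest on the RefSeq start alone. The Per3 window held the D-box at both -205 and -158, and the Bhlhe41 window held an E-box at -153. The Rora, Nr1d2 and Dbp windows held none of the motifs searched. The search also covered the D-box variant TTACGTAA, the ROR element ANTNGGTCA and the full CRE TGACGTCA, which were in 0 of the 10 windows. Each full CRE contains the CRE core and was counted for both. Over all 32851 windows in the RefSeq table, 7.15% held the E-box, 4.68% the noncanonical E-box, 0.938% the D-box, 0.119% its variant, 2.24% the ROR element, 1.79% the full CRE and 20.8% the CRE core, against 3, 3, 1, 0, 0, 0 and 4 of the 10 windows here. A match describes the letters of the window and does not show binding, and sites outside the windows were not searched.

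**Figure D1:**
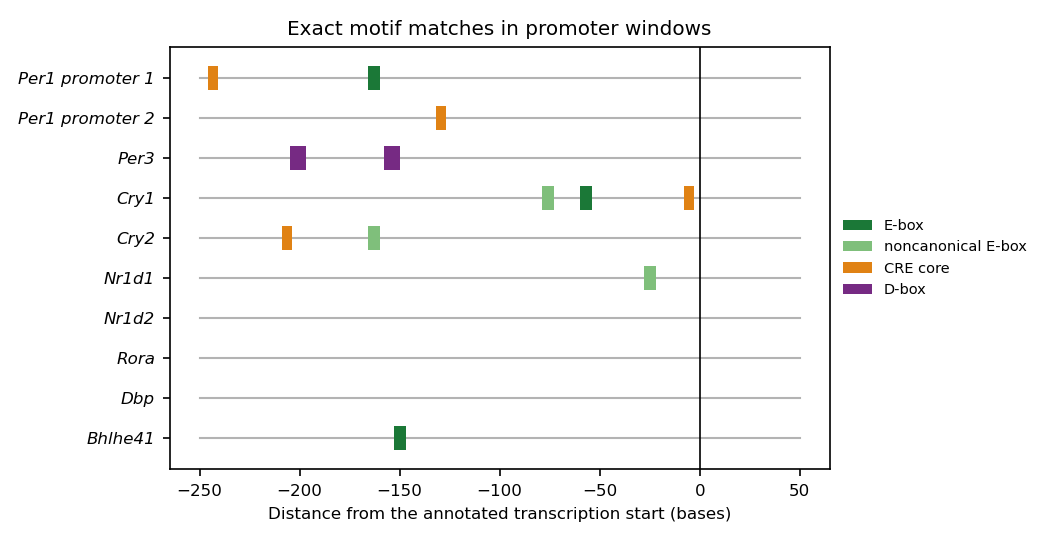
Exact motif matches in the RefSeq promoter windows of 9 clock genes, by distance from the annotated transcription start in bases (x axis), with 1 line per window and coloured bars for the motifs. Per1 shows 2 CRE cores and 1 E-box over its windows, and Rora, Nr1d2 and Dbp show no match.

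After PE, Per1 RNA was higher than in the matching control in 3 of 3 pairs. Per1 lies on chromosome 11 from 69095217 to 69109960 (GRCm38, GENCODE M21) and shares no position with another annotated gene. Its level was 105, 151, 87.8 and 67.5 CPM in control replicates 1 to 4 and 200, 148 and 125 CPM in PE replicates 2 to 4. Every PE library thus lay above its own control, but the groups overlapped, since PE replicates 3 and 4 were below control replicate 2. These levels rest on 1194 to 2825 reads per library. The group means were 103 ± 35.8 CPM (SD, n = 4) in control and 158 ± 38.3 CPM (n = 3) in PE. The log2 ratio of PE to control was 0.40, 0.75 and 0.89 in pairs 2, 3 and 4, and the fitted change within pairs was 0.67 ± 0.07 (SE), or 1.59-fold. The ratio was smallest in the pair with the highest control level and largest in the pair with the lowest, although the control level is itself part of the ratio. The SE is that of a model with a variance estimate moderated over all genes. The 3 Per1 log2 ratios themselves had an SD of 0.25.

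Rora was also higher after PE in 3 of 3 pairs, on top of a larger difference between replicate numbers. RORα activates Arntl and also regulates many metabolic genes. The gene spans 734461 bases of chromosome 9 from 68653786 to 69388246, and the antisense gene that overlaps it had 1 read in all libraries together. Rora stood at 108 and 123 CPM in control replicates 1 and 2 and at 33.1 and 28.9 CPM in control replicates 3 and 4. In PE replicates 2, 3 and 4 it stood at 169, 53.7 and 40 CPM. PE was higher in every pair, but PE replicates 3 and 4 remained far below the controls of the other numbers, and the groups overlapped. The log2 ratios were 0.46, 0.70 and 0.47 and the fitted change within pairs 0.53 ± 0.06, or 1.44-fold. With the pairs ignored, the change was 0.26 ± 0.68, and the group means of 73.4 ± 49.4 CPM (n = 4) and 87.7 ± 71.1 CPM (n = 3) differed by less than either SD. That change was -0.65 without PE replicate 2, -0.01 without control replicate 4, 0.02 without control replicate 3 and 0.63 without control replicate 2, so its direction rests on single libraries.

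Of the 10 genes, Per1 and Rora passed a Benjamini-Hochberg adjusted p of 0.05 within pairs (edgeR with the replicate number as a block) and 8 did not, where 0.540% of all 15934 tested genes passed. That contrast was known when the genes were chosen, so nothing is read from the count. With robust estimation in edgeR, Per1 did not pass. Without the pairs 0 of the 10 passed in edgeR, where 0% of all tested genes passed. At an unadjusted p under 0.05 there were again 0 of the 10, where 0.446% of tested genes were found, and DESeq2 and limma-voom called 0. The median log2 change within pairs was 0.06 over the 10 genes and 0.00 over all tested genes.

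**Figure D2:**
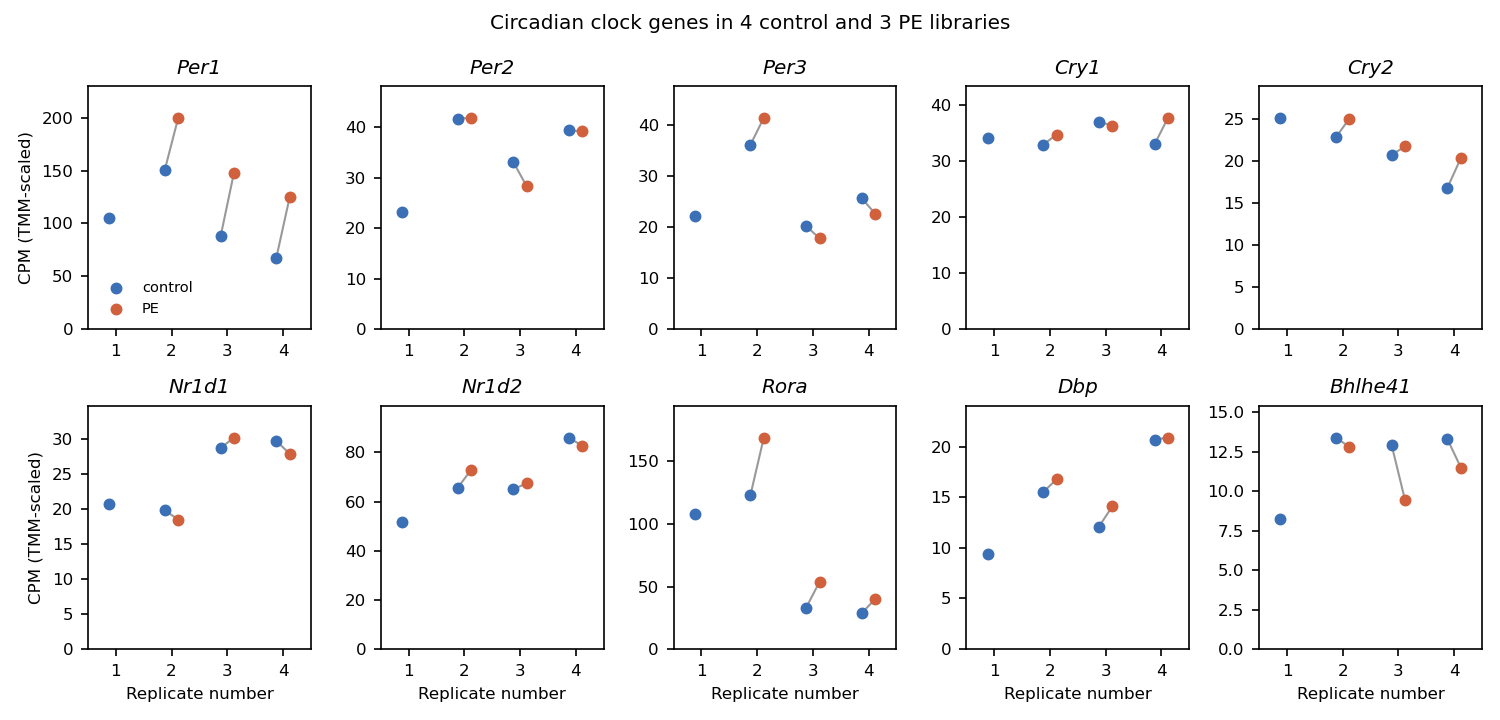
CPM of the 10 clock genes (y axes, from 0) by replicate number (x axes) in control (blue) and PE (orange) libraries, with a line joining the libraries of a pair. Per1 and Rora are higher in PE in all 3 pairs, as are Cry2 and Dbp by smaller amounts (4 of the 10 genes). Of all tested genes 11.9% were higher in all pairs, and nothing is read from the count. Rora is above 100 CPM in replicates 1 and 2 and below 60 CPM in replicates 3 and 4.

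The other period genes did not share the change of Per1. Per2, which like Per1 encodes a repressor of CLOCK and BMAL1, lies on chromosome 1 from 91415982 to 91459324. It stood at 23.3, 41.7, 33.1 and 39.4 CPM in control replicates 1 to 4 and at 41.9, 28.3 and 39.2 CPM in PE replicates 2 to 4. Its log2 ratios of 0.01, -0.22 and -0.01 showed near equal levels in pairs 2 and 4 and a lower PE value in pair 3, and the fitted change was -0.07 ± 0.07. Per3, whose product has a lesser part in the loop, lies on chromosome 4 from 151003652 to 151044665. It stood at 22.2, 36.1, 20.2 and 25.6 CPM in control and at 41.4, 17.8 and 22.6 CPM in PE. Per3 was higher in PE in pair 2 and lower in pairs 3 and 4 (log2 ratios 0.20, -0.18 and -0.18, fitted -0.04 ± 0.09). The groups of both genes overlapped. The largest Per2 ratio of the 3 pairs (0.01) was below the smallest Per1 ratio (0.40).

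The cryptochromes, which partner the period proteins in repression, had small differences between control and PE. Cry1, on chromosome 10 from 85131700 to 85185064, stood at 34.0, 32.9, 37.0 and 33.0 CPM in control and at 34.7, 36.3 and 37.7 CPM in PE. Its controls differed by 1.13-fold at most, and 95% of tested genes had a wider range among the controls. The fitted PE change was 0.08 ± 0.07, with log2 ratios of 0.08, -0.03 and 0.19. Cry2, on chromosome 2 from 92403646 to 92434043, stood at 25.1, 22.8, 20.7 and 16.8 CPM in control and at 25.0, 21.7 and 20.3 CPM in PE. Its controls differed by up to 1.49-fold, a width that 54.3% of tested genes exceeded. Cry2 was higher in PE in all 3 pairs by small amounts (log2 ratios 0.13, 0.07 and 0.27, fitted 0.16 ± 0.08), and 11.9% of all tested genes were higher in all pairs.

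The REV-ERB genes encode the repressors that compete with ROR receptors. Nr1d1, on chromosome 11 from 98767932 to 98775333, stood at 20.7, 19.8, 28.7 and 29.7 CPM in control and at 18.5, 30.2 and 27.9 CPM in PE. The libraries of replicates 3 and 4 were all above those of replicates 1 and 2, with or without PE, and the fitted PE change was -0.04 ± 0.08. Nr1d1 shares 263 exon bases with Thra on the opposite strand, a gene with 15892 reads in all libraries against 2663 for Nr1d1. Strand is not marked by the library kit, and reads from the shared bases cannot be assigned to either gene. Nr1d2, on chromosome 14 from 18204054 to 18239127, stood at 51.6, 65.6, 64.9 and 86.0 CPM in control and at 72.8, 67.5 and 82.5 CPM in PE. Its groups overlapped, and the fitted change was 0.04 ± 0.06.

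The output and side-loop factors were the least abundant by read number. Dbp, which encodes the D-box activator, lies on chromosome 7 from 45705088 to 45710203. It stood at 9.38, 15.5, 12.1 and 20.7 CPM in control and at 16.8, 14.1 and 20.9 CPM in PE, a 2.21-fold range among the controls. Dbp was slightly higher in PE in each pair (log2 ratios 0.12, 0.22 and 0.01, fitted 0.10 ± 0.10). It shares 539 exon bases with Sphk2 on the opposite strand, which had 3768 reads against 1673 for Dbp. Bhlhe41 encodes DEC2, which represses E-box genes, and lies on chromosome 6 from 145858243 to 145865558. It stood at 8.22, 13.4, 12.9 and 13.3 CPM in control and at 12.8, 9.42 and 11.5 CPM in PE. Bhlhe41 was the member that was lower in PE in all 3 pairs (log2 ratios -0.07, -0.45 and -0.21, fitted -0.23 ± 0.11), a direction that 13.5% of all tested genes showed in all pairs. The remaining overlaps of the 10 genes with other annotated genes shared no exon (Per3 with Camta1) or involved genes with at most 24 reads in all libraries.

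**Figure D3:**
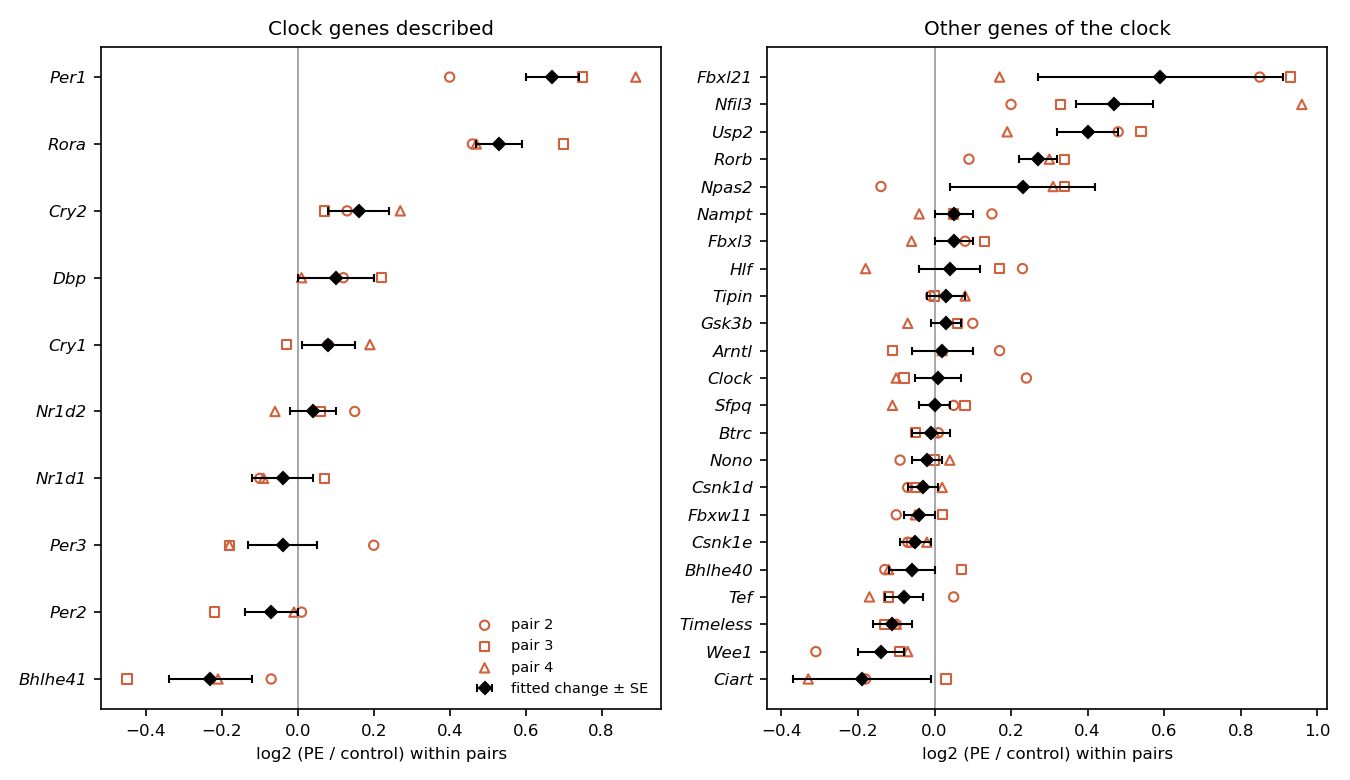
Log2 ratio of PE to control (x axis) in pairs 2, 3 and 4 (open symbols) and the fitted change within pairs with its SE (black), for the 10 clock genes on the left and 23 other genes of the clock on the right. On the left Per1 (0.67) and Rora (0.53) stand to the right of the other 8 genes, which lie between -0.23 and 0.16.

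Levels of different genes were compared per length, as CPM per kilobase of merged exons (RPKM). In control the mean was 18.3 ± 6.36 RPKM (SD, n = 4) for Per1, 12.4 ± 2.63 for Nr1d2, 10.2 ± 0.578 for Cry1 and 8.04 ± 1.68 for Nr1d1. It was 5.87 ± 1.40 for Per2, 5.62 ± 3.78 for Rora, 4.81 ± 1.63 for Dbp, 3.38 ± 0.554 for Cry2, 2.71 ± 0.736 for Per3 and 1.78 ± 0.373 for Bhlhe41. The ranges of neighbours in this order overlapped, except that all Cry1 values lay above all Nr1d1 values and all Per3 values above all Bhlhe41 values. Per1 was above Nr1d2 in 3 of the 4 controls, and Per2 and Rora were each above the other in 2. When the length of the longest transcript was used instead, Dbp moved from place 7 to place 5 and Per2 from place 5 to place 7, while the other genes kept their places.

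**Figure D4:**
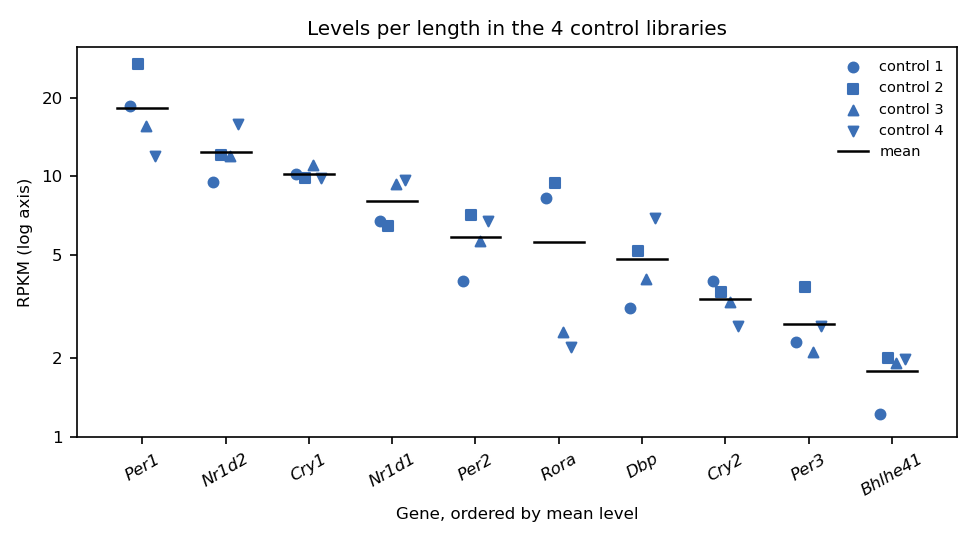
RPKM on a log axis (y axis) of the 10 clock genes in the 4 control libraries (1 symbol per library, line at the mean), ordered by mean level. Cry1 lies within 9.84 to 11.1 RPKM, while Rora splits into a pair of libraries above 8 and a pair below 3.

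The spread between controls was wide for Rora and narrow for Cry1. Time of day at harvest was not part of the analysis, so levels and spreads are those of these libraries only. The control range was 4.27-fold for Rora (2.09 on the log2 scale), a width that 4.94% of tested genes exceeded. It was 2.24-fold for Per1 and 2.21-fold for Dbp, with 23.2% and 24% of tested genes wider. For Per2, Per3, Nr1d2, Bhlhe41, Nr1d1 and Cry2 the range was 1.79, 1.78, 1.67, 1.63, 1.5 and 1.49-fold. The median log2 range was 0.79 over the 10 genes and 0.63 over all tested genes.

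Rora and its paralogue Rorb, a gene outside the 10, were high in opposite libraries. Rorb stood at 14.5 and 28.3 CPM in control replicates 1 and 2 and at 122 and 144 CPM in control replicates 3 and 4, a 9.95-fold range. Per length, Rora exceeded Rorb in control replicates 1 and 2, at 8.27 against 1.31 RPKM and 9.45 against 2.55 RPKM. In control replicates 3 and 4 Rorb exceeded Rora, at 11.0 against 2.53 RPKM and 13.0 against 2.21 RPKM. The split by number was seen in these libraries and is no label of the study, so it was not tested. Nfil3, which encodes a repressor at D-box elements, followed Rora at 81.1, 76.4, 25.3 and 20.3 CPM in controls 1 to 4. The activator genes went the other way, with Clock at 78.2, 86.5, 115 and 135 CPM and Arntl at 20.4, 16.7, 28.8 and 28.3 CPM. Their control ranges were 1.72-fold and 1.73-fold. The cell cycle kinase gene Wee1 (5.36-fold), the DNA replication gene Timeless (4.64-fold) and Npas2 (2.84-fold) split more widely in the same direction. Bhlhe40 (1.48-fold) had no such split. The split was thus not confined to genes of the feedback loop.

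Some marker sums also differed between the numbers. The 5 mural and leptomeningeal markers summed to 149 to 206 CPM in the libraries of replicates 1 and 2 and to 73.9 to 96.0 CPM in those of replicates 3 and 4. The 4 endothelial markers, of which 3 were tested, summed to 20.2 to 38.4 CPM and 7.89 to 9.82 CPM, with no marker of either list at 0 in any library. Most of the mural difference was Vtn, at 87.4 to 125 CPM against 31 to 48.4 CPM, with Rgs5 at 11.6 to 16.1 CPM against 6.22 to 7.05 CPM, while the ranges of Pdgfrb, Acta2 and Col1a1 overlapped between the numbers. Most of the endothelial difference was Kdr, at 15.5 to 33 CPM against 4.46 to 7.6 CPM. Pecam1, at low levels, was also higher in replicates 1 and 2, at 2.72 to 2.86 CPM against 0.95 to 1.75 CPM. Flt1 was at 1.5 to 2.4 CPM against 1.11 to 1.5 CPM. Cldn5, a defining endothelial gene, was at 0.158 to 0.603 CPM in all 7 libraries, with overlapping ranges. The OPC markers summed to 6469 to 7888 CPM in the libraries of replicates 1 and 2 and to 8617 to 9016 CPM in those of replicates 3 and 4. Pdgfra, Ptprz1, Cspg4, Olig1 and Olig2 were each higher in replicates 3 and 4, with no overlap. Sox10 went the other way, at 448 to 629 CPM in replicates 1 and 2 against 340 to 457 CPM, with overlapping ranges. The astrocyte sums overlapped between the numbers, as did Aqp4, Slc1a2 and Gjb6. Aldh1l1 was higher in replicates 1 and 2 without overlap, at 85.9 to 95.3 CPM against 29.9 to 63.2 CPM. Gfap was too, at 258 to 544 CPM against 190 to 241 CPM. In bulk RNA fewer cells of a type and less RNA per cell cannot be told apart, and the part of other cells in the Rora level was not tested.

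**Figure D5:**
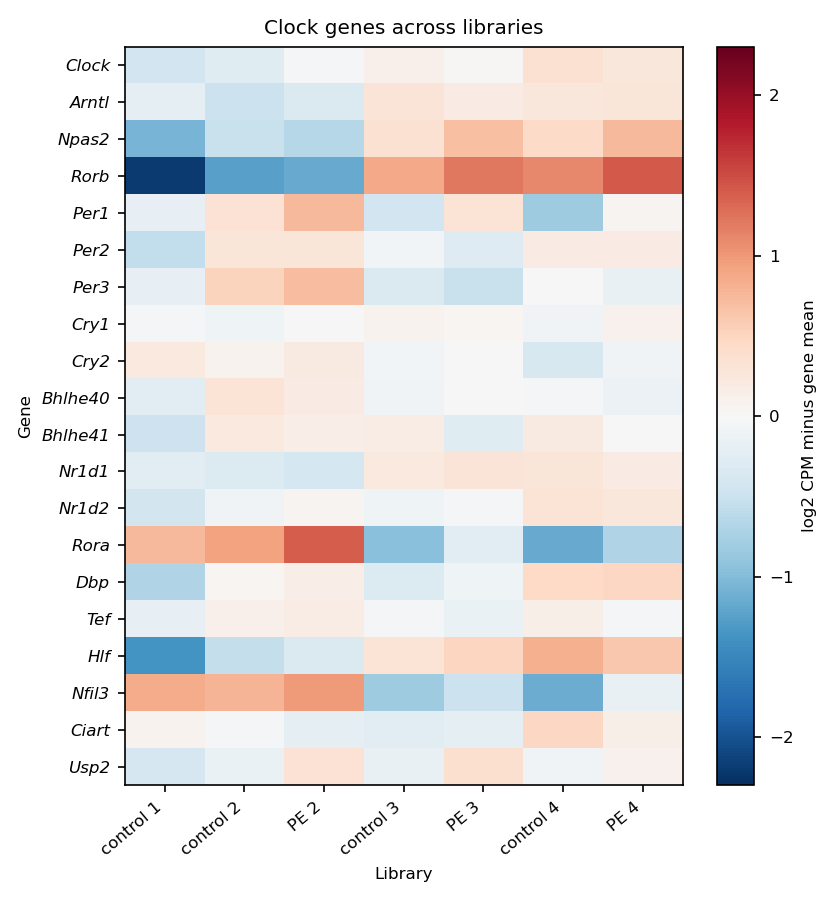
Log2 CPM minus the mean of each gene over the 7 libraries (colour) for 20 clock genes (rows) in the control and PE libraries (columns, by replicate number). Rora and Nfil3 are above their means in replicates 1 and 2 and below them in 3 and 4, Rorb is the reverse, and Cry1 is near its mean throughout.

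Of 23 other genes of the clock pathway, 2 rose within pairs, Rorb and Usp2, 0 fell and 21 did not pass (edgeR with the block), where 0.502% of all tested genes passed in the higher and 0.0377% in the lower direction. Their median log2 change was 0.01 against 0.00 over all tested genes. Rorb rose by a log2 change of 0.27 ± 0.05 (1.21-fold, 3 of 3 pairs, adjusted p = 0.0317), from 28.3 to 30.1, 122 to 155 and 144 to 178 CPM in pairs 2, 3 and 4. Usp2, a deubiquitinase that in mouse acts on PER1, rose by 0.40 ± 0.08 (1.32-fold, 3 of 3 pairs, adjusted p = 0.0334). It stood at 22.7, 26.6, 26.3 and 27.9 CPM in control and at 37.2, 38.2 and 31.8 CPM in PE, so every PE library lay above every control, a separation in this direction that 0.684% of tested genes showed. Usp2 shares 200 exon bases with a pair of annotated genes on the opposite strand that were not analysed here. Neither gene passed with DESeq2 and the block, and leaving out replicate 3 ended both calls, while leaving out replicate 4 ended that of Rorb. Without the pairs 0 of the 23 passed in edgeR, where 0% of all tested genes passed, and 0 in DESeq2 or limma-voom. At an unadjusted p under 0.05 edgeR found 1 of the 23 without the pairs, where 0.446% of all tested genes were found. Within pairs it found 5 of the 23, where 5.76% of all tested genes were found.

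Clock and Arntl had fitted changes close to 0 after PE, at 0.01 ± 0.06 and 0.02 ± 0.08. Npas2, which can replace CLOCK, had 0.23 ± 0.19 at 1.5 to 5.25 CPM. Among the genes that did not pass, Nfil3 had log2 ratios of 0.20, 0.33 and 0.96 and a fitted change of 0.47 ± 0.10 (edgeR, adjusted p = 0.063). It passed without replicate 2, without replicate 3 and without the filter on low counts. Fbxl21 (0.59 ± 0.32) averaged 1.05 CPM in control and rests on few reads. Ciart had -0.19 ± 0.18 and Wee1, a cell cycle kinase gene that the clock controls in mouse liver, had -0.14 ± 0.06. Timeless, which acts in DNA replication, had -0.11 ± 0.05. Bhlhe40, the paralogue of Bhlhe41, had -0.06 ± 0.06.

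Per1 is also a target of CREB and of the glucocorticoid receptor, and these lists were set beside it. Both lists were chosen with earlier results of these data known. Their counts are descriptions, and nothing about Per1 is read from them. Of 17 other cAMP and CREB response genes 13 rose within pairs (edgeR with the block), with a median log2 change of 0.71, namely Nr4a1, Nr4a2, Nr4a3, Gem, Sik1, Scg2, Vgf, Dusp1, Crem, Junb, Fos, Pde4d and Pde4b at 0.25 to 1.82, where 0.502% of all tested genes rose. With the block, DESeq2 called 7 of the 17 and robust estimation in edgeR 5, and neither called Nr4a1, Nr4a3, Fos, Scg2 or Vgf. Without the pairs 0 of the 17 passed in edgeR, where 0% of all tested genes passed, and 0 in DESeq2 or limma-voom. At an unadjusted p under 0.05 without the pairs edgeR found 6 of the 17, where 0.446% of tested genes were found. Of 14 other glucocorticoid response genes 0 passed in edgeR with the block, with 3 at an unadjusted p under 0.05 (5.76% of all tested genes) and 0 in DESeq2 or limma-voom, and their median log2 change was 0.10. With 0.540% of all tested genes passing, 0 of 14 is near the background, and nothing about these genes is read from it.

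The genes most like Per1 and Rora were sought among 11237 tested genes with a mean of at least 5 CPM. Genes with Gm or Rik names or with no name were left out. Those with the highest Pearson correlation with Per1 over the log2 CPM of the 7 libraries were Dusp1 (r = 0.986), Nr4a2 (0.975), Pvr (0.969), Ap5s1 (0.967) and Smim3 (0.958). Dusp1, a MAP kinase phosphatase gene, stood at 24.7, 35.7, 20.4 and 16.5 CPM in control and at 47.5, 33.8 and 34.3 CPM in PE, with its highest control in replicate 2 and its lowest in replicate 4 as for Per1. For Rora they were Fos (r = 0.991), Dusp16 (0.990), Slc40a1 (0.990), Dct (0.989) and Kbtbd7 (0.988). Fos, the AP-1 subunit gene, stood at 377, 492, 83.5 and 83.3 CPM in control and at 561, 135 and 121 CPM in PE, a split by replicate number like that of Rora. These are descriptions over 7 libraries, 6 of which form pairs, and were picked as the highest of many.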

How the data were processed

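The deposited table holds whole-number read counts per Ensembl gene with no normalization by the authors, 1 column for each of the 7 libraries. The submitters' processing notes name bcl2fastq 2.17, STAR, HTSeq and the builds GRCm38 and mm10. For annotation release, strand setting and filters, nothing was given in the sources used here. SMART-Seq v4 and Nextera XT, the kits per the labels, amplify cDNA without marking strand, so reads are not independent molecules and floors of 3 counts cover counting error only. Columns were matched to samples by the codes in the titles. Libraries of the same group differed by more than sampling noise (chi-square over its degrees of freedom 11.1 to 92.9, against 1 for noise alone) and were counted separately.

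Counts were tested with edgeR 4.0.16 in R 4.3.3 (TMM, filterByExpr with minimum count 10 and minimum total 15, quasi-likelihood F test, two-sided, Benjamini-Hochberg over all 15934 genes, threshold 0.05), with the group alone, planned as the main fit, and with the replicate number as a block. Deviations from the group means correlated at 0.74, 0.67 and 0.79 between same-numbered libraries, each above the limit of 0.1, and the titles share a code within each pair, so the numbers were taken to pair the samples. Some libraries of different numbers also passed 0.1 (control 1 with PE 2 at 0.67, control 3 with PE 4 at 0.36, control 4 with PE 3 at 0.22), so the pairing rests on the titles as well as on this limit. Control replicate 1 carries no weight in the blocked effect. "Rose" and "fell" refer to the blocked test. CPM are counts scaled to TMM library sizes, RPKM divides them by merged exon length from GENCODE M21, and an SE is the log2 change divided by the root of its F statistic. The procedure was also run on simulated counts, drawn with the means of each replicate number and the variance estimates of the blocked fit. Such counts assume the pairing and cannot check it, and no result of that run is used here. Alternatives were DESeq2 1.42.0, limma-voom (limma 3.58.1), robust estimation, no filter on low counts, each library or pair left out and the longest transcript as length.

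The members and the gene lists were chosen with earlier results of these data known. 1 gene of the planned clock list is not reported here. The rule for named genes took all 10 members, genes of the clock, CREB and glucocorticoid lists past the blocked test, the 6 other clock genes with the largest change among those not past it with Clock, Arntl and Npas2, and the 5 genes most correlated with Per1 and with Rora. Bhlhe40 and Olig2 are named outside it, after their values were seen.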

Additional observations from a re-analysis of the deposited data

Results flagged for a closer look

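Of the 10 clock genes, each examined over its 4 control libraries, 1 had a library far from the others. Bhlhe41 was at 8.22 CPM in control replicate 1, below the 13.4, 12.9 and 13.3 CPM of control replicates 2 to 4. The gap, as a share of the whole range, exceeded Dixon's critical value for 4 samples. Chance gives such a gap in about 1 in 20 groups. Control replicate 1 has no PE partner, so the change of Bhlhe41 within pairs does not rest on it.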

How the results depend on the processing

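Without the replicate block edgeR called 0 genes and DESeq2 called 2, and with the replicate block 86 were called. Adding the block moved the count of called members from 0 to 2 and that of other clock genes from 0 to 2. The share of all tested genes called moved from 0% to 0.540%. Leaving out any single library left the counts without the block at 0 for all genes, members and other clock genes. Within pairs the 86 calls became 33 with DESeq2 and 194 with no filter on low counts, 87 with limma-voom and 88 with robust estimation, and leaving out pair 2, 3 or 4 gave 253, 52 or 254. The members called were Per1 and Rora except with robust estimation, which called 1 (Rora), and leaving out a pair gave 2 each time. The members were chosen with this contrast known, so nothing is read from their counts. Of the 17 cAMP and CREB response genes, 13 passed within pairs, 7 with DESeq2 and 5 with robust estimation. Of other clock genes DESeq2 called 0 within pairs, and leaving out a pair gave 1 to 3. Over the 8 settings the log2 change within pairs was 0.56 to 0.82 for Per1 and 0.46 to 0.59 for Rora. Per3 ranged from -0.18 to 0.04, so it has no settled direction. The longest transcript as length moved 4 of 10 control levels by more than their SD. What caused these differences between settings was not tested. The read totals set a floor of 0.17 to 0.238 CPM, far below the levels of the 10 genes.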
